A study of Homo sapiens with 4 samples.

Results

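The human genome carries its replication-dependent histone genes in clusters, and 89 genes of that kind were found among the 60302 genes of the deposited expression table. They were chosen by symbol alone: every symbol that begins with HIST1H to HIST4H and does not end in P and a number was kept. The names divide into 8 genes for the linker histone H1, 23 for H2A, 26 for H2B, 16 for H3 and 16 for H4. In all, 13 carry a PS name, of which GENCODE 29 types 12 as pseudogenes and HIST2H3PS2 as protein coding. It also types HIST2H2BA, HIST2H2BB, HIST2H2BD and HIST3H2BA as pseudogenes, and the rule kept all of these. By symbol 67 of the genes belong to HIST1, and that cluster lay between positions 25726360 and 27861621 of chromosome 6 on GRCh37. HIST1H2APS6 and HIST1H2BPS3 carry HIST1 names but are listed on chromosome 13. The HIST2 and HIST3 clusters on chromosome 1 held 17 and 4, and HIST4 on chromosome 12 held 1.

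The samples were HMLE cells, a human mammary epithelial line immortalized with telomerase and a viral large T antigen. In 2 samples a lentivirus had given the cells a stable short hairpin RNA against HNRNPF (hnRNPF knockdown). In the other 2 the stable hairpin was non-specific (control), so both groups carry a hairpin vector and neither is an unmodified parent. Whether the 2 samples of each group were infected separately, or with hairpins of different sequence, is not stated. A p-value here covers only the spread among the samples at hand, which may be technical. HNRNPF encodes hnRNP F, a protein that binds G-rich RNA and regulates splicing, and the series title names it with RNA G-quadruplexes.

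Core histones H2A, H2B, H3 and H4 form the nucleosome, and H1 binds the linker DNA between nucleosomes. Most mRNAs of the clustered genes are made during S phase, have no introns and end just after a conserved stem-loop, without a poly(A) tail. The stem-loop binding protein SLBP and the U7 small nuclear ribonucleoprotein guide that cut, and some of the genes can also give polyadenylated mRNAs that end at a later site. The libraries here were poly(A)-selected. The values therefore measure histone RNA that carries a tail or came through the selection without one, and these cannot be told apart.

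The stem-loops are shown because they are what sets these mRNAs apart from others, and because in some of the gene models they precede a poly(A) signal. In each line below the capitals mark the 16 bases of the stem-loop, a stem of 6 base pairs closed by a loop of 4 bases, with 5 bases on either side. All lie after the stop codon and were read from GENCODE 29 transcripts. Genes keep the names of the deposited data, where ENSG00000203812.2 is HIST2H2AA4, while GENCODE 29 names its transcript after HIST2H2AA3. A second identifier listed as HIST2H2AA4 has the same stem-loop and flanking bases.

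HIST2H2BE: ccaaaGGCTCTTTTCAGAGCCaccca
HIST3H2A: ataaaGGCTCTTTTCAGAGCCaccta
HIST2H2AA4: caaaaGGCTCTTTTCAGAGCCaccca
HIST1H2AC: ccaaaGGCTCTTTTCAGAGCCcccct
HIST1H2BD: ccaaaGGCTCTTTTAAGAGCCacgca
HIST2H4B: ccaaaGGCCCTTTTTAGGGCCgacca
HIST1H2AG: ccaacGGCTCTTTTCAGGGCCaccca

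The ends of 3 of these transcripts are shown for the poly(A) signal, the hexamer that directs cleavage and tailing, which stands here in capitals within the last 30 bases.

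HIST2H2BE: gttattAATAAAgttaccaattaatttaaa
HIST3H2A: tctgatATTAAAagtatttatgatctctaa
HIST2H2AA4: cgttttcaAATAAAagagttgttaatgctg

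The stem-loop pattern searched was GG, any 3 bases, TT, any base, T, any base, A, any 3 bases and CC, on the transcribed strand in the first 100 bases after the stop codon. It was found in 28 of the 29 histone genes that had at least 60 annotated bases there (96.6%), and in 80 of 18880 genes overall (0.424%). The form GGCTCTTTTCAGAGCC occurred in 16 genes, of the H2A, H2B and H3 classes. The forms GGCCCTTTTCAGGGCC and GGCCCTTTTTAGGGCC occurred in 4 and 3 genes, all H4. In HIST2H2BE the hexamer began 1705 bases past the end of the stem-loop, in HIST3H2A 366 bases past it and in HIST2H2AA4 only 13 bases past it. HIST1H2BD had 2 annotated forms. One ended 91 bases after the stop codon and kept the stem-loop, and the spliced one had no stem-loop. A match is a description of the annotated letters and does not say which end the sequenced RNA had.

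The targeted gene was checked first. HNRNPF had 18.7 and 16.6 FPKM (fragments scaled to the length of the gene and the depth of the library) in knockdown samples, against 154 and 153 FPKM in controls, 8.71-fold lower. On the log2(FPKM + 1) scale the difference was -3.05 (SE 0.0986, limma, Benjamini-Hochberg adjusted p = 0.0251 over the 13110 genes that averaged 1 FPKM or more). That call was lost with an added term for the replicate number (adjusted p = 0.164), without either control sample (0.262 and 0.104), without a filter on level (0.259) and without the intensity trend (0.0995). The lowest steps in the table imply about 80600000 and 85000000 fragments in knockdown samples and 77400000 and 84200000 in controls. At that depth 1 fragment on a histone gene of 400 bp is worth 0.0294 to 0.0323 FPKM. Markers of basal mammary epithelium, 8 genes, summed to 9357 and 10514 FPKM in knockdown samples and 7465 and 11014 FPKM in controls. Luminal markers were also 8 genes, of which only 3 averaged 1 FPKM or more, and PGR and KIT stayed under 0.1 FPKM. These 8 summed to 416 and 453 FPKM in knockdown samples and 424 and 470 FPKM in controls. The 6 fibroblast markers summed to 12.1 and 13.1 FPKM in knockdown samples and 11.4 and 9.88 FPKM in controls. Most of that was COL1A1, with 11.5 and 12.3 FPKM in knockdown samples and 10.4 and 9.24 FPKM in controls, while PDGFRB reached 0.828 FPKM and DCN and LUM stayed under 0.1 FPKM. The blood cell markers were almost wholly CD68, with 11.2 and 11.3 FPKM in knockdown samples and 12.0 and 12.1 FPKM in controls, and PTPRC, CD3E and HBB were under 0.1 FPKM. The endothelial markers CDH5, VWF and KDR were also under 0.1 FPKM in every sample. The part of these markers in the histone values was not tested. Mitochondrially encoded genes summed to 31102 and 32440 FPKM in knockdown samples and to 31978 and 24742 FPKM in controls, so the second control stood lowest. All 13 of them had a log2 difference above 0, with a median of 0.213. What sets this lean, and its part in the histone values, was not tested.

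Most of the 89 histone genes were listed at low levels. The median gene averaged 0.151 FPKM, 12 were listed at 0 in every sample, and 15 averaged at least 1 FPKM. A further 11 reached 0.5 FPKM in some sample, and the other 51 that were above 0 stayed below that. Of the PS-named genes 8 of 13 were at 0 throughout, and the highest averaged 0.181 FPKM. HIST1H2BK and HIST1H1C together supplied 52.7% and 52.5% of the summed histone FPKM in knockdown samples, and 46.7% and 47.5% in controls.

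**Figure D1:**
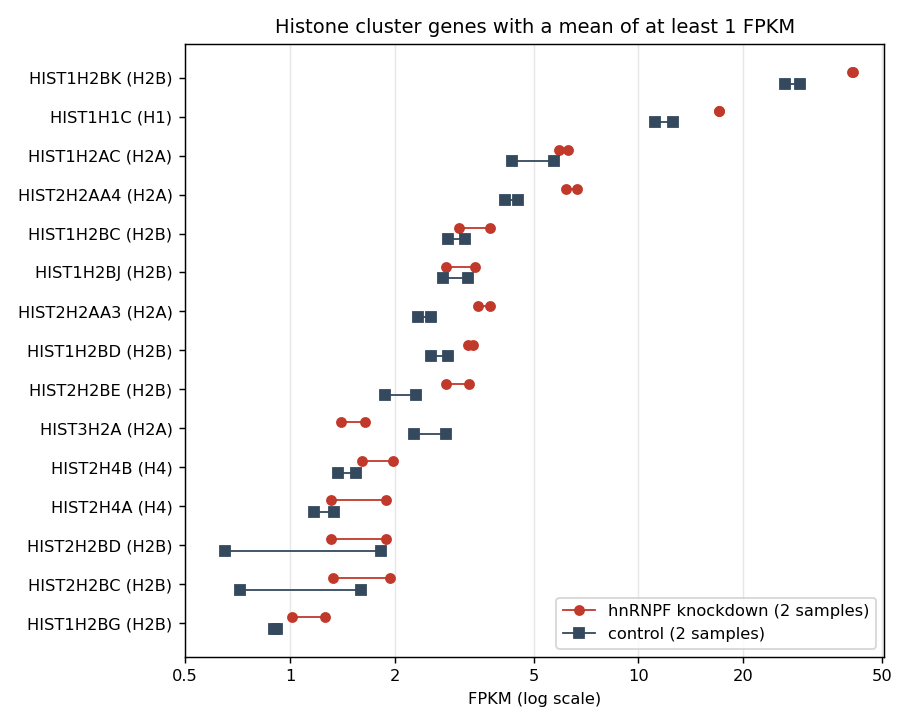
FPKM (log scale) of the 15 histone genes that averaged 1 FPKM or more, 1 point per sample, knockdown samples and controls in separate colours. HIST1H2BK and HIST1H1C stand above the rest, with all knockdown values above all control values, and HIST3H2A lies the other way.

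Among H1 genes, HIST1H1C (ENSG00000187837.3, chr6:26056015-26056656 of GRCh37, minus strand) was the only one to average 1 FPKM. It encodes the linker histone H1.2 and had 17.0 FPKM in each knockdown sample, against 12.6 and 11.1 FPKM in controls. The knockdown values lay close together and above both controls. The ratio of means was 1.43 (17.0 ± 0.0110 FPKM in knockdown samples and 11.9 ± 1.01 FPKM in controls, SD, n = 2 each), with a log2 difference of 0.49 (SE 0.117, limma, adjusted p = 0.673). These values rest on about 879 and 927 fragments in knockdown samples and 625 and 602 in controls. In the table its locus lies inside a longer same-strand locus listed as HIST1H2BB, which had at most 0.152 FPKM. The other H1 genes, 6 of them above 0, summed to 1.16 and 0.944 FPKM in knockdown samples and to 1.30 and 0.904 FPKM in controls, and those groups overlapped.

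H2A genes at 1 FPKM or more numbered 4. HIST1H2AC, which encodes an H2A protein of the HIST1 cluster, had 5.92 and 6.29 FPKM in knockdown samples, against 4.33 and 5.74 FPKM in controls. HIST2H2AA4 (ENSG00000203812.2, chr1:149822643-149823191) had 6.66 and 6.18 FPKM in knockdown samples, against 4.50 and 4.15 FPKM in controls. HIST2H2AA3 (chr1:149813505-149814478) had 3.75 and 3.47 FPKM in knockdown samples, against 2.54 and 2.34 FPKM in controls. In these 3 genes both knockdown values lay above both control values. HIST2H2AA4 and HIST2H2AA3 are near-identical copies that encode the same H2A protein, and their ratio was 1.78 and 1.78 in knockdown samples and 1.77 and 1.78 in controls, so they do not count as separate measurements. Summed with another identifier listed as HIST2H2AA4, the copies had 10.4 and 9.66 FPKM in knockdown samples and 7.05 and 6.49 FPKM in controls, a ratio of means of 1.48. HIST3H2A (ENSG00000181218.5, chr1:228644680-228645574) encodes the H2A of the small HIST3 cluster and ran the other way. It had 1.40 and 1.64 FPKM in knockdown samples, against 2.27 and 2.80 FPKM in controls, with about 101 and 125 fragments in knockdown samples. Its ratio of means was 0.599, and its log2 difference was -0.49 (SE 0.168, limma, adjusted p = 0.806).

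Of H2B genes 8 averaged at least 1 FPKM. HIST1H2BK (ENSG00000197903.7, chr6:27114197-27114577, minus strand) encodes an H2B protein and was the highest histone gene of the set. It had 40.9 and 41.3 FPKM in knockdown samples, against 26.4 and 29.1 FPKM in controls, and the groups did not overlap. The means were 41.1 ± 0.256 FPKM in knockdown samples and 27.7 ± 1.91 FPKM in controls (SD, n = 2 each), a ratio of 1.48. The log2 difference was 0.55, with a 95% interval of 0.29 to 0.81 (limma, adjusted p = 0.540). About 1257 and 1337 fragments lay behind the knockdown values, and 778 and 934 behind the control values.

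HIST2H2BE, the H2B gene with the long annotated 3′ end shown above, had 2.81 and 3.27 FPKM in knockdown samples, against 1.88 and 2.31 FPKM in controls. HIST1H2BD had 3.24 and 3.34 FPKM in knockdown samples, against 2.54 and 2.83 FPKM in controls. HIST1H2BG had 1.01 and 1.26 FPKM in knockdown samples, against 0.901 and 0.918 FPKM in controls. These 3 H2B genes also had both knockdown values above both control values, at ratios of means of 1.45, 1.22 and 1.25. HIST1H2BC had 3.74 and 3.05 FPKM in knockdown samples, against 3.18 and 2.84 FPKM in controls. HIST1H2BJ had 2.81 and 3.40 FPKM in knockdown samples, against 2.75 and 3.24 FPKM in controls. In both genes the groups overlapped. HIST2H2BD, typed as a pseudogene, and its similar copy HIST2H2BC, which had no match in GENCODE 29, lie next to the HIST2H2AA copies and are also counted among the 8. They summed to 3.82 and 2.64 FPKM in knockdown samples, against 3.42 and 1.37 FPKM in controls. Here the second control was the low sample, and the groups overlapped.

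Neither of the 2 remaining classes held a gene above 2 FPKM. HIST2H4B had 1.61 and 1.97 FPKM in knockdown samples, against 1.37 and 1.54 FPKM in controls. Its duplicate HIST2H4A, which encodes the same H4 protein, had 1.31 and 1.88 FPKM in knockdown samples, against 1.17 and 1.34 FPKM in controls. Summed, the copies had 2.93 and 3.85 FPKM in knockdown samples and 2.54 and 2.88 FPKM in controls, so the lower knockdown sum lay just above the higher control sum. No H3 gene averaged 1 FPKM, and the highest, HIST1H3H, had 0.720 and 1.21 FPKM in knockdown samples and 0.652 and 1.02 FPKM in controls. HIST2H3A and HIST2H3C, which encode the same H3 protein and were each under 0.2 FPKM in every sample, summed to 0.229 and 0.179 FPKM in knockdown samples, against 0.388 and 0.330 FPKM in controls. Their loci overlap those of HIST2H4B and HIST2H4A on the other strand, and their values were so alike that they count as 1 measurement.

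Of the 11 genes that averaged under 1 FPKM but reached 0.5 FPKM in some sample, 4 had both knockdown values above both controls and 0 had both below, where 14.4% and 9.68% of all genes above 0 that averaged under 1 FPKM did. These members were named for their highest value, so the count is a description. HIST1H3E, an H3 gene, had 0.689 and 0.535 FPKM in knockdown samples, against 0.440 and 0.394 FPKM in controls. HIST2H2AC had 0.597 and 0.589 FPKM in knockdown samples, against 0.355 and 0.512 FPKM in controls. HIST1H2AI had 0.572 and 0.588 FPKM in knockdown samples, against 0.533 and 0.385 FPKM in controls. HIST1H4K, an H4 gene, had 0.836 and 1.07 FPKM in knockdown samples, against 0.831 and 0.824 FPKM in controls. For HIST2H2AC about 19 and 20 fragments lay behind the knockdown values and 11 and 17 behind the control values, so gaps of this size lie near counting error. The groups overlapped in the other 7, which were HIST1H2AG, HIST1H2AE, HIST1H2AM, HIST1H2BH, HIST1H3H, HIST1H4J and HIST1H4H.

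Over the 77 histone genes above 0, 20 had both knockdown values above both controls and 10 had both below. These are 26.0% and 13.0% of the genes, where 15.7% and 12.8% of all genes above 0 separated in the same way. After quantile normalization the counts were 12 and 11, or 15.6% and 14.3%, against 13.8% and 15.2% of all genes. The higher share of the separated genes was then 52.2%, compared with 66.7% before, so the lean towards higher values over the whole family was mostly lost under quantile normalization. Under median-ratio scaling it stayed, at 19 higher and 10 lower (24.7% and 13.0%, against 15.8% and 13.5% of all genes). Without the second control 30 were higher and 24 lower of the 77, at background shares of 23.4% and 39.5%. Without the first control 36 were higher and 16 lower (36.3% and 22.7% of all genes), without the first knockdown sample 34 and 16 (26.6% and 30.6%), and without the second 33 and 19 (39.8% and 19.8%). Of the 15 genes at 1 FPKM or more, 9 were higher and 1 was lower, where 17.5% and 17.1% of all genes at that level were. Of the 62 below it, 11 were higher and 9 lower, where the shares of all such genes were 14.4% and 9.68%. The 15 passed a filter on the mean of all samples and do not stand for the 89. HIST1H2BG, one of the 9, passed it only through the knockdown samples, and the HIST2H2AA copies are 2 of the 9. Those copies are also 2 of the 20 higher. HIST2H3A and HIST2H3C, which count as 1 measurement, are 2 of the 10 lower.

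**Figure D2:**
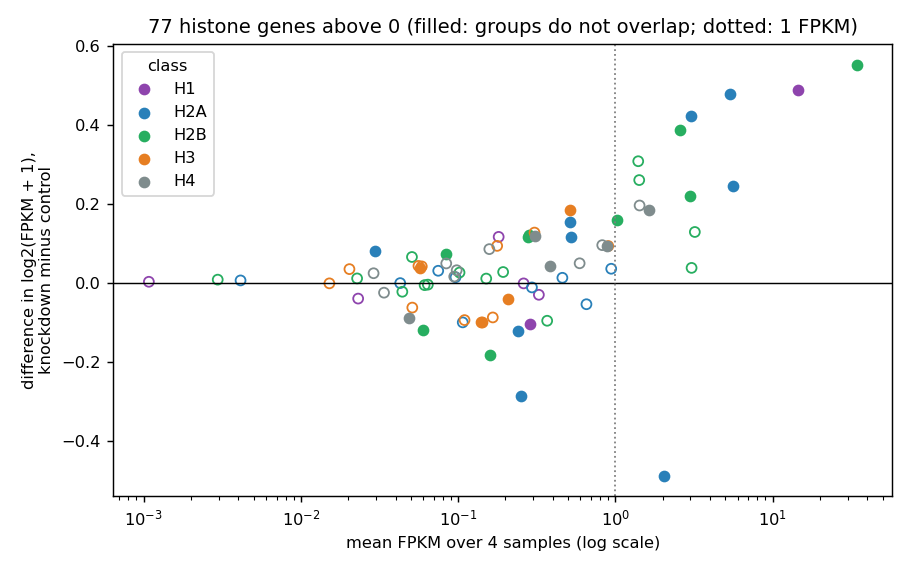
Log2 difference, knockdown minus control, on the log2(FPKM + 1) scale against mean FPKM (log scale), with histone genes coloured by class. On this scale points near 0.1 FPKM and below lie close to 0 whatever their ratio. The highest genes HIST1H2BK and HIST1H1C lie at 0.55 and 0.49.

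No histone gene passed the adjusted threshold of 0.05. The lowest adjusted p was 0.540, and among all 13110 genes tested 0% were called higher and 0.00763% lower, which is HNRNPF alone. At an unadjusted limma p under 0.05, 4 histone genes were higher (HIST1H2BK, HIST1H1C, HIST2H2AA4 and HIST2H2AA3) and HIST3H2A was lower, where 3.06% of all genes tested were higher and 3.02% lower. With near-identical copies summed, 3 were higher and 1 lower. The median log2 difference of the 15 was 0.25, and 14 were above 0, while the median of all genes tested was 0.00120. The share of all genes tested that lay above 0 was not taken. The 14 hold near-identical copies, and with copies summed 11 of 12 genes were above 0. HIST1H2BG, also among them, passed the filter only through the knockdown samples. With any single sample left out, 1 or 2 of the 15 were under that unadjusted p on the higher side and 0 on the lower side. With no filter on level, 77 histone genes were tested, of which 4 were higher and 4 lower at the unadjusted p, at background shares of 3.07% and 2.44%. The 4 lower were then HIST1H2BL, HIST1H4A and the copies HIST2H3A and HIST2H3C, all of low level. HIST3H2A and HIST2H2AA3 were no longer under that p, and HIST1H2BF was.

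Summed over all 89 genes, histone FPKM reached 109.8 and 110.9 in knockdown samples and 83.5 and 84.7 in controls. Both knockdown sums lay above both control sums, at a ratio of means of 1.31. The SDs were 0.771 FPKM in knockdown samples and 0.843 FPKM in controls (n = 2 each). In an exact two-sided permutation test p was 0.3333, the smallest that 2 samples against 2 can give. In bulk samples a lower sum may come from fewer cells making the RNA or from less RNA per cell, and these cannot be told apart.

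The sums differed in the same direction in each of the 5 classes. H1 genes summed to 18.1 and 17.9 FPKM in knockdown samples and 13.9 and 12.0 FPKM in controls. H2A genes summed to 21.6 and 22.2 FPKM in knockdown samples and 17.8 and 19.4 FPKM in controls. H2B genes summed to 60.3 and 60.2 FPKM in knockdown samples and 43.3 and 44.2 FPKM in controls. The H2B class was the largest in every sample, and HIST1H2BK made up 67.9% and 68.6% of it in knockdown samples and 61.0% and 65.8% in controls. H3 genes summed to 3.05 and 3.05 FPKM in knockdown samples and 2.69 and 2.89 FPKM in controls. H4 genes summed to 6.82 and 7.58 FPKM in knockdown samples and 5.86 and 6.13 FPKM in controls. The ratios of means were 1.39 for H1, 1.18 for H2A, 1.38 for H2B, 1.09 for H3 and 1.20 for H4, each with an exact p of 0.3333.

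The H1 ratio rested on 1 gene. Without HIST1H1C the log2 ratio of the H1 sums was -0.07, against 0.48 with it. Without HIST1H2BK the H2B genes summed to 19.3 and 18.9 FPKM in knockdown samples and 16.9 and 15.1 FPKM in controls, a log2 ratio of 0.26 against 0.46 with it. Without HIST1H3H the H3 genes summed to 2.33 and 1.84 FPKM in knockdown samples and 2.04 and 1.87 FPKM in controls, and those groups overlapped. After quantile normalization the H3 log2 ratio was 0.01, against 0.13 before, and the H4 ratio was 0.16 against 0.26. The log2 ratios of all 5 class sums stayed above 0 with each sample left out in turn.

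**Figure D3:**
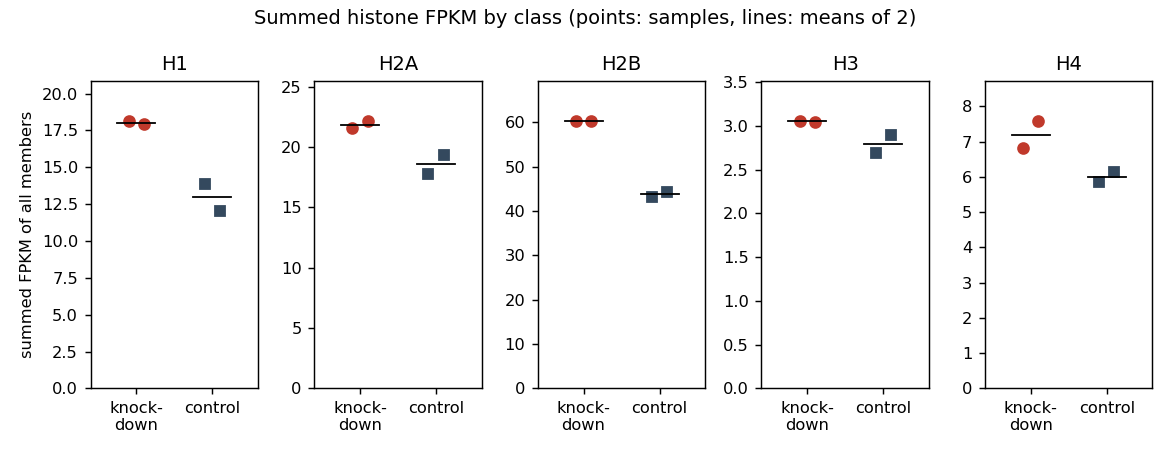
Summed FPKM of all members of each class, 1 point per sample, knockdown samples left of controls, with a bar at each group mean. H2B sums stand at 60.3 and 60.2 FPKM in knockdown samples and 43.3 and 44.2 FPKM in controls, and H3 sums are the lowest.

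Levels were then set beside the 3′ ends that GENCODE 29 gives the genes, of which 83 of 89 matched by identifier. The 22 genes with a poly(A) hexamer, AATAAA or ATTAAA, in the last 50 bases of a transcript had a median of 0.747 FPKM, and 9 of them averaged at least 1 FPKM. The 11 with an annotated 3′ untranslated region but no hexamer there had a median of 0.310 FPKM, and none averaged 1 FPKM. The 34 whose models end at the stop codon had a median of 0.105 FPKM. The 2 genes of this last kind that averaged 1 FPKM were HIST1H2BK and HIST1H1C, the highest of all. Their 381 and 642 annotated bases hold coding sequence only, so neither a stem-loop nor a hexamer could be read for them. FPKM also depends on the length of the model, since fragments that run past a model's end are not within it. Of the 9 with a hexamer, 5 had both knockdown values above both controls (HIST1H2AC, HIST2H2AA4, HIST1H2BD, HIST2H2BE and HIST2H4B). HIST3H2A had them below, and the groups overlapped in HIST1H2BC, HIST1H2BJ and HIST2H4A. Among all genes that averaged at least 1 FPKM, 17.5% lay above in that way and 17.1% below. The 9 passed a filter on level and hold the duplicates HIST2H4A and HIST2H4B, so the count is a description.

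**Figure D4:**
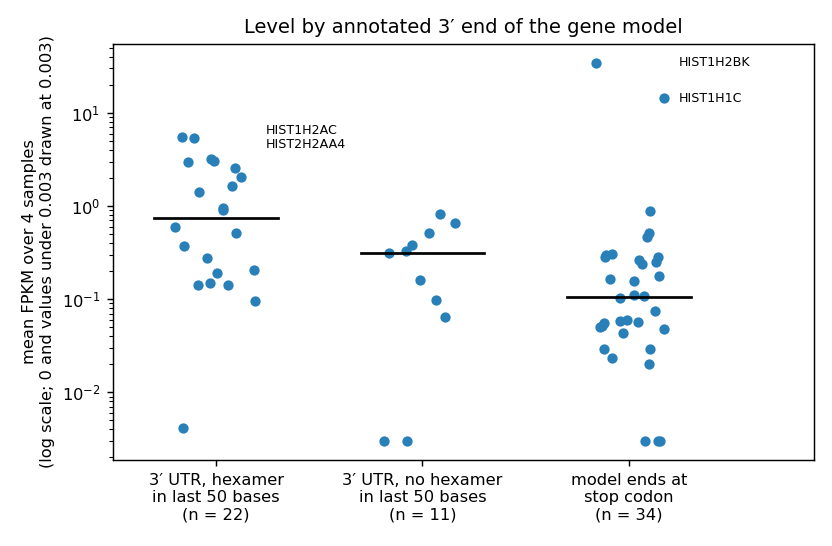
Mean FPKM over the 4 samples (log scale) of coding histone genes by the annotated 3′ end of their models, with a bar at each median. Medians were 0.747, 0.310 and 0.105 FPKM from left to right, and HIST1H2BK and HIST1H1C stand apart in the group that ends at the stop codon.

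Many H2A and H2B genes stand head to head and share the stretch between their starts. Among such pairs above 0 the means differed by 1.27-fold to 461-fold. The closest were HIST1H2AD and HIST1H2BF, at only 0.107 and 0.0840 FPKM. HIST1H2BK averaged 34.4 FPKM and its partner HIST1H2AH, whose start is 331 bases away, 0.0747 FPKM. HIST3H2A averaged 2.03 FPKM and its partner HIST3H2BB 0.0642 FPKM, 234 bases apart. HIST2H2BE averaged 2.57 FPKM and its partner HIST2H2AC 0.513 FPKM. HIST1H2AC and its partner HIST1H2BC differed least among the pairs at 1 FPKM or more on both sides, at 5.57 and 3.20 FPKM.

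RefSeq promoters on GRCh38.p14, 250 bases before to 50 bases after the start, were at hand for 57 of the genes. The octamer ATTTGCAT, the binding sequence of POU2F1, was found on either strand in 24 of 57 (42.1%), against 1.77% of 35116 promoters. By class it was in 11 of 14 H2A and 12 of 16 H2B promoters, in 1 of 10 H3 promoters, and in 0 of 6 H1 and 0 of 11 H4 promoters. The motif CCAAT was in all H1, H2A, H2B and H3 promoters searched and in 2 of 11 H4 promoters, against 34.6% of all promoters. TATAAA was in 38 of 57 (66.7%), against 11.5%. These counts describe the letters of the windows, and no promoter activity was measured.

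The genes that act on histone mRNA were compared next, in the same fit and by lists of their roles. None passed the adjusted threshold, and the counts at the unadjusted p below stand beside the 3.06% higher and 3.02% lower of all genes tested. For 3′-end processing 12 of 13 genes were tested, and 0 were higher or lower at the unadjusted p. SLBP, the stem-loop binding protein, had 33.6 and 28.5 FPKM in knockdown samples, against 28.0 and 35.3 FPKM in controls. The groups overlapped, and the 95% interval of the log2 difference was -0.44 to 0.40. The 3 genes of that list with the smallest p were ZNF473, a component of the U7 complex, with 3.23 and 3.004 FPKM in knockdown samples and 3.74 and 3.86 FPKM in controls, CPSF3, the endonuclease, and SYMPK, its scaffold. CPSF3 had 34.2 and 30.9 FPKM in knockdown samples and 28.5 and 30.1 FPKM in controls, and SYMPK had 27.6 and 28.2 FPKM in knockdown samples and 29.9 and 31.3 FPKM in controls. RNU7-1, the U7 RNA gene, was listed at up to 0.0580 FPKM. It has no poly(A) tail and is short, so the table says little of it.

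Of the 17 general cleavage and polyadenylation genes 0 were higher or lower at the unadjusted p, with a median log2 difference of -0.06. The smallest p there, after SYMPK, belonged to CSTF1, with 16.1 and 13.8 FPKM in knockdown samples and 13.3 and 13.2 FPKM in controls, and to CPSF1, whose groups overlapped. Of 13 genes for translation and decay of histone mRNA, 1 was higher at the unadjusted p. That was DCP2, the decapping enzyme, with 7.49 and 5.76 FPKM in knockdown samples and 3.51 and 4.84 FPKM in controls (limma, adjusted p = 0.821). LSM4, part of the ring that binds the ends of decaying mRNA, had 82.9 and 90.1 FPKM in knockdown samples and 77.6 and 72.1 FPKM in controls. The values of CTIF, a translation factor of the cap-binding complex, overlapped between groups.

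Of 11 genes for transcription of histone genes at S phase, 2 were higher and 0 lower at the unadjusted p. CCNE1, the cyclin that acts with CDK2 at the start of S phase, had 7.91 and 7.54 FPKM in knockdown samples, against 4.69 and 5.50 FPKM in controls (log2 difference 0.52, adjusted p = 0.753). HINFP, a factor of H4 promoters, had 7.60 and 6.75 FPKM in knockdown samples, against 5.22 and 4.90 FPKM in controls (log2 difference 0.43, adjusted p = 0.797). NPAT, the coactivator of histone transcription that CDK2 phosphorylates, had 4.56 and 3.39 FPKM in knockdown samples and 4.65 and 3.89 FPKM in controls. The groups overlapped for NPAT. CDKN1A, the CDK inhibitor p21, varied widely, at 111 and 234 FPKM in knockdown samples and 204 and 289 FPKM in controls.

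Genes for DNA replication lay the other way from the histone sums. Of 21 tested, 14 had both knockdown values below both controls and 2 had both above, where 17.1% and 17.5% of all genes at that level did. At the unadjusted p 4 were lower, RRM2, PCNA and TYMS among them, 0 were higher, and the median log2 difference was -0.16. RRM2, a subunit of ribonucleotide reductase, had 47.9 and 56.8 FPKM in knockdown samples, against 81.0 and 76.4 FPKM in controls (log2 difference -0.58, limma, adjusted p = 0.586). PCNA, the sliding clamp, had 109 and 121 FPKM in knockdown samples, against 145 and 144 FPKM in controls. TYMS, which makes thymidylate, had 36.7 and 39.8 FPKM in knockdown samples, against 46.6 and 46.1 FPKM in controls. The part of cell cycle phase in the histone values was not tested.

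**Figure D5:**
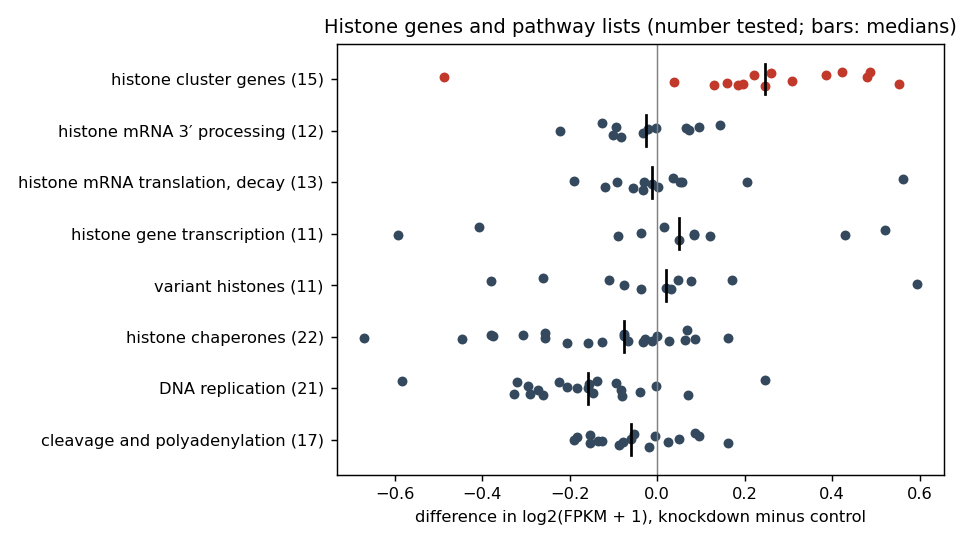
Log2 difference, knockdown minus control, on the log2(FPKM + 1) scale for each tested histone gene and each tested gene of the lists, with a bar at the median of each. Histone genes have a median of 0.25 and DNA replication genes of -0.16, and no gene shown passed the adjusted threshold.

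Histone chaperones, which carry histones to DNA, had no gene at the unadjusted p among 22, while 9 had both knockdown values below both controls and 0 had both above, where 17.1% and 17.5% of all genes at that level did. The 3 with the smallest p were ANP32E, a chaperone of H2A.Z, with 31.2 and 40.3 FPKM in knockdown samples and 46.1 and 46.6 FPKM in controls, UBN1 and TONSL. UBN1, which acts in H3.3 deposition, had 10.1 and 8.12 FPKM in knockdown samples and 14.2 and 11.3 FPKM in controls. TONSL, which binds newly made H3 and H4, had 8.91 and 7.05 FPKM in knockdown samples and 10.7 and 10.6 FPKM in controls.

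Variant histone genes lie outside the clusters and mostly give polyadenylated mRNA that is not tied to S phase, and most averaged more FPKM than any of the clustered genes. Of 11 tested, 1 was higher and 1 lower at the unadjusted p. H2AFY2, which encodes a macroH2A, had 10.6 and 11.4 FPKM in knockdown samples, against 6.45 and 7.48 FPKM in controls (log2 difference 0.59, adjusted p = 0.632). H2AFZ, which encodes H2A.Z, had 252 and 262 FPKM in knockdown samples, against 339 and 330 FPKM in controls (log2 difference -0.38, adjusted p = 0.662). CENPA, the H3 variant of centromeres, had 13.8 and 14.9 FPKM in knockdown samples and 17.2 and 17.6 FPKM in controls. The H3.3 genes H3F3A and H3F3B had 87.8 to 105 FPKM in knockdown samples and 86.5 to 106 FPKM in controls. H2AFX had 41.7 and 49.7 FPKM in knockdown samples and 38.6 and 51.4 FPKM in controls. The linker variant H1FX had 66.3 and 73.4 FPKM in knockdown samples and 66.3 and 68.8 FPKM in controls. H1F0 had 64.9 and 100.1 FPKM in knockdown samples and 71.1 and 101.7 FPKM in controls, a spread within each group that was wider than the difference between them.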

How the data were processed

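The deposited table gives FPKM per gene for 4 samples, each column 1 replicate of 1 group per the file headers. Per the labels' protocols, Trizol RNA was made into stranded paired-end poly(A)-selected TruSeq libraries. GRCh37, Cuffdiff 2.2.1 and STAR 2.5.3a appear in the submitters' processing notes with no roles. What computed the FPKM is not given in the sources used here, nor is the annotation release. Coordinates are those of the table. Depth was estimated from the lowest steps of FPKM times length in single-exon genes. Of the low values 42.1% to 44.9% were whole multiples of the step within 0.02, so whole reads could not be had and a count test was not used.

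Genes averaging at least 1 FPKM were tested by limma 3.58.1 (R 4.3.3) on log2(FPKM + 1), which understates changes of low genes, with an intensity trend, two-sided, Benjamini-Hochberg over all genes tested. Ratios called so are of mean FPKM. Sums, sequences and figures were made in Python 3.11.15 with pandas 2.3.3. GENCODE 29 and the RefSeq promoter table are on another build and gave no coordinates.

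The members and lists were chosen with earlier results of these data known. Histone genes averaging at least 1 FPKM or reaching 0.5 FPKM were named, with HNRNPF, 8 preset genes and the 3 smallest p of each list of histone mRNA, chaperone, variant and replication genes. A gene outside this rule was named only where a count of 5 or fewer needed it, where it overlaps or pairs with a histone gene, or as a cell marker. The alternatives were pseudocounts, filters, normalizations, fit options, summed copies and leaving out each sample. Some genes of the lists are not reported here by name.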

Additional observations from a re-analysis of the deposited data

How the results depend on the processing

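No histone gene passed the adjusted threshold under any alternative run, and the lowest adjusted p was 0.275. Of 196 values of single histone genes under alternatives, 192 kept their direction. Many of these could not reverse, since filters, the trend, robust estimation and the replicate block leave the log2 difference itself unchanged. HIST1H2BJ reversed to -0.0064 on the log2 scale after quantile normalization, to -0.066 without the second knockdown sample and to -0.050 without the first control (range with each sample left out -0.066 to 0.142), and HIST2H2BD reversed to -0.128 without the second control (range -0.128 to 0.648). The count of 1 lower histone gene at an unadjusted limma p under 0.05 became 4 without a filter (HIST3H2A not among them) and 0 after quantile normalization. A filter at 5 FPKM removed HIST3H2A, which averaged 2.03 FPKM, before testing. The 4 histone genes left all had a log2 difference above 0, so none could be called lower there. The share of all genes at that p was not taken after quantile normalization or with the 5 FPKM filter. HNRNPF stayed at -3.05 without a filter, without the trend and with the replicate number as a block, with adjusted p of 0.259, 0.0995 and 0.164, and lay between -3.13 and -2.98 with each sample left out.

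Of the counts of separated histone genes, the 20 higher became 12 after quantile normalization, and leaving out each sample, chosen after seeing the data, gave 30 to 36 higher and 16 to 24 lower, since fewer samples separate more easily. The log2 ratios of summed FPKM after quantile normalization were 0.01 for H3, 0.16 for H4 and 0.37 for all classes. Without the highest gene of each class they were -0.0707 for H1, 0.26 for H2B and 0.23 for all. With each sample left out they ranged from 0.38 to 0.58 for H1, 0.17 to 0.30 for H2A, 0.45 to 0.48 for H2B, 0.076 to 0.182 for H3, 0.19 to 0.34 for H4 and 0.38 to 0.40 for all. The causes were not tested.

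Deviations of same-numbered samples correlated at 0.39 over the tested genes, but with only 2 numbers the samples share a number and no known pairing. With the replicate block 0 histone genes passed adjustment. At the unadjusted p 5 were higher and 1 lower, near-identical copies included. The share of all genes at that p was not taken for this fit, so these counts have no background.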
